A study of Mus musculus with 6 samples.

Results

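Mesothelium is the sheet of flattened cells that covers visceral organs and the free face of visceral fat pads. The 9 genes described here are known markers of that sheet: Msln, Upk3b, Upk1b, Lrrn4, Wt1, Krt8, Krt18, Krt19 and Gpm6a. They were chosen by symbol, as the array rows whose platform annotation names 1 gene equal to a member, and all 9 were found among 19938 genes, each with 1 probeset. The question addressed was whether mesothelial transcripts of perigonadal visceral fat (viWAT) differ between obese mice with and without Cre-driven deletion of Hmox1, the gene of the heme-degrading enzyme heme oxygenase-1.

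Total RNA was hybridised to 6 Affymetrix mouse gene arrays, 3 for each genotype. Hmox1f/f PdgfraCre mice (arrays 1 to 3) carried Hmox1 alleles with loxP sites around exon 2 and a Cre transgene under the promoter of Pdgfra, a receptor gene of adipose precursors (APs). Hmox1f/f mice (arrays 4 to 6) carried the same floxed alleles and no Cre, so that the presence of Cre and the deletion of Hmox1 cannot be told apart. Each array held RNA pooled from 2 mice, which the methods describe as males on a C57BL/6J background, and all mice were fed a high-fat diet (HFD), begun at 6 weeks of age and kept up for 8 weeks. Some labels call the material APs and others viWAT. Pdgfra was at a log2 intensity of 10.05 to 10.36 on the 6 arrays. The 14 mature adipocyte genes found averaged 11.67 to 12.05 and the 22 macrophage genes 10.10 to 10.87, so that transcripts of other cells were measured beside those of APs on every array.

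Mesothelial cells are of mesodermal origin and yet carry epithelial features: they rest on a basement membrane, make keratin filaments and display a coat of membrane glycoproteins toward the body cavity. In development they express the transcription factor Wt1, and lineage tracing from Wt1 has linked them to adipocytes of visceral, but not subcutaneous, fat. None of the markers is fully private to mesothelium. Simple epithelia also make the keratins Krt8, Krt18 and Krt19, urothelium makes uroplakins, and visceral APs make Wt1.

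All 9 members lay above a log2 intensity of 7 in at least 3 arrays and were therefore tested, as were 11024 genes in all. A log2 intensity is the level of a probeset on an array, and 1 unit is a doubling. Compared with Hmox1f/f, 7 members were lower in Hmox1f/f PdgfraCre (Msln, Upk3b, Upk1b, Lrrn4, Wt1, Krt19 and Gpm6a) and 2 were higher (Krt8 and Krt18). Of these differences 0 of 9 passed an adjusted p of 0.05 in limma, as did 0 of all genes tested (0%). At an unadjusted p under 0.05 only Lrrn4 was called, 1 of 9 members, where 15.8% of all genes tested were called in either direction, 12.8% as lower and 3.03% as higher. In no member were the groups free of overlap, against 27% of all genes tested, 21.2% with Cre lower and 5.82% with Cre higher. The median log2 difference was -0.12 over the members and -0.03 over all genes tested, of which 57.4% lay below 0 and 42.6% above. In bulk RNA, fewer mesothelial cells and less RNA per cell cannot be told apart.

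**Figure D1:**
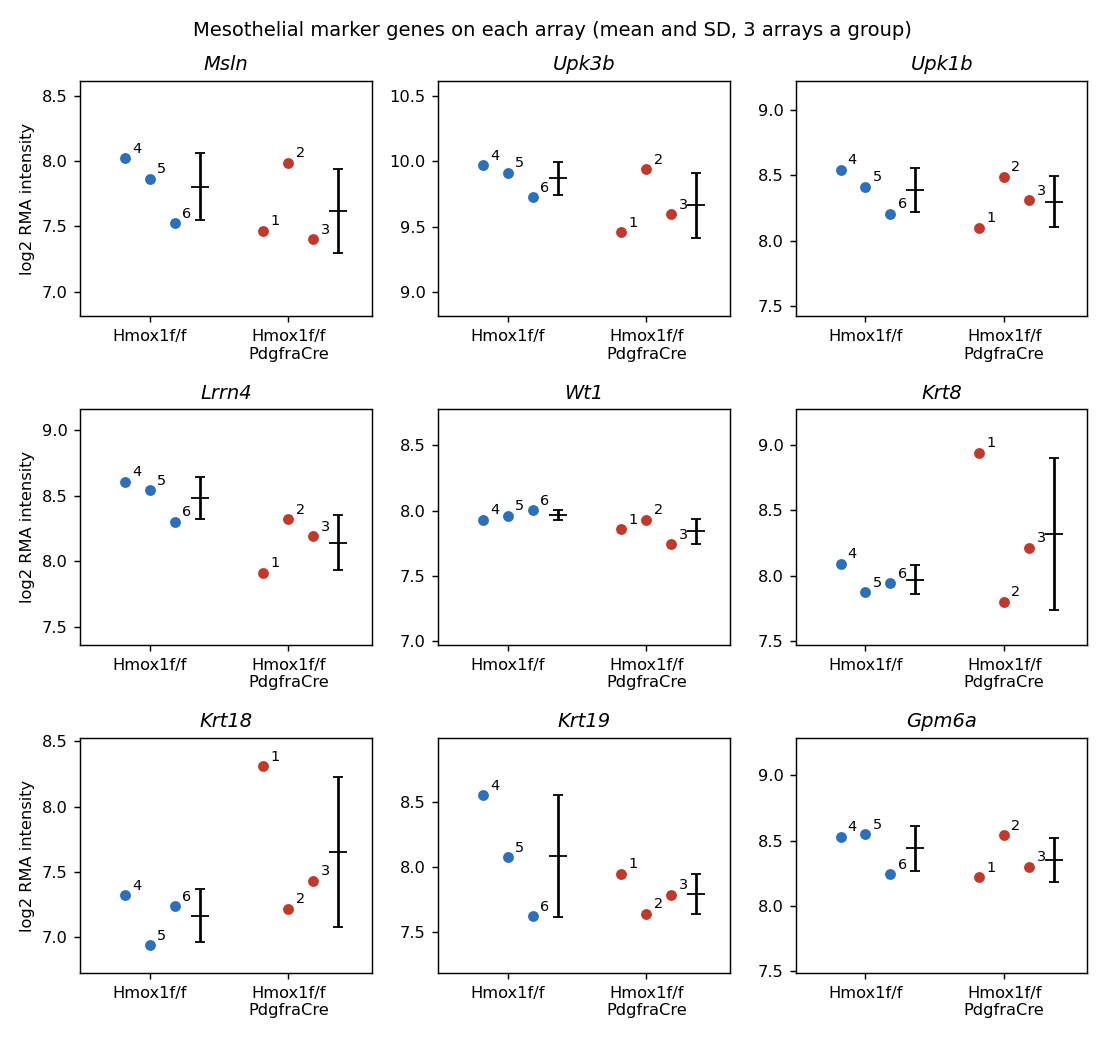
Log2 RMA intensity (vertical axis) of each member on each array, with blue points for Hmox1f/f (arrays 4 to 6) and red points for Hmox1f/f PdgfraCre (arrays 1 to 3). Black bars give the mean and SD of 3 arrays, and all panels span the same range of log2 units. The groups overlap in every panel, and array 1 stands highest in Krt8 and Krt18.

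Among the membrane proteins, Msln encodes mesothelin, a lipid-anchored glycoprotein of the mesothelial surface. Msln was at a log2 intensity of 7.47, 7.99 and 7.40 on Hmox1f/f PdgfraCre arrays 1, 2 and 3, and at 8.02, 7.86 and 7.52 on Hmox1f/f arrays 4, 5 and 6. Arrays 1 and 3 with Cre and array 6 without Cre were low, the other 3 were high, and the groups overlapped. The means were 7.62 ± 0.32 and 7.80 ± 0.25 (SD, n = 3 each), a log2 difference of -0.18 ± 0.20 (SE) with a 95% confidence interval from -0.66 to 0.29 (limma, adjusted p = 0.642).

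Upk3b encodes a uroplakin, a membrane glycoprotein first known from the urothelial plaque, and is also a marker of mesothelium. It reached 9.46, 9.94 and 9.59 on arrays 1 to 3 and 9.97, 9.91 and 9.72 on arrays 4 to 6 (log2 intensity). The same 3 arrays (1, 3 and 6) were again the lowest, and array 2 reached the level of arrays 4 and 5. The log2 difference was -0.21 ± 0.14 (SE), with an interval from -0.55 to 0.14 (limma, adjusted p = 0.484).

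Upk1b encodes a uroplakin of the tetraspanin family that assembles with other uroplakins. On arrays 1 to 3 its log2 intensities were 8.10, 8.49 and 8.31, and on arrays 4 to 6 they were 8.54, 8.41 and 8.20. Arrays 1, 6 and 3 were the lowest in this order, and the groups overlapped almost entirely. The log2 difference was -0.09 ± 0.13 (SE; interval -0.41 to 0.23, limma, adjusted p = 0.743), and without array 1 its sign turned, to 0.011.

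Lrrn4 encodes a leucine-rich repeat membrane protein and had the smallest p of the members. Levels with Cre were 7.91, 8.32 and 8.19 on the log2 scale, and levels without Cre were 8.61, 8.54 and 8.30. Arrays 1 and 3 were below all Hmox1f/f arrays, whereas array 2 was slightly above array 6, so that the groups just overlapped. The means were 8.14 ± 0.21 and 8.48 ± 0.16 (SD, n = 3 each), a log2 difference of -0.34 ± 0.14 (SE), or 1.27-fold lower, with an interval from -0.67 to -0.02. In limma its unadjusted p was 0.0421 and its adjusted p 0.303. This unadjusted call was lost on leaving out array 1 (log2 difference -0.23), array 3 (-0.37), array 4 (-0.28) or array 5 (-0.31). With all 6 arrays it was also lost after a further quantile normalization (-0.30, limma, unadjusted p = 0.0714) and after centring each array on its median (-0.33, unadjusted p = 0.0623).

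Gpm6a encodes a membrane glycoprotein that is abundant in neurons and is found in mesothelium as well. Its log2 levels were 8.22, 8.54 and 8.30 with Cre and 8.53, 8.55 and 8.24 without. Arrays 1, 6 and 3 were low, and arrays 2, 4 and 5 lay close together. The log2 difference was -0.09 ± 0.13 (SE; interval -0.39 to 0.22, limma, adjusted p = 0.731).

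Wt1 encodes the zinc finger transcription factor of mesothelium and of visceral APs, and it varied least among the members. It was at 7.86, 7.93 and 7.74 on arrays 1 to 3 and at 7.93, 7.96 and 8.01 on arrays 4 to 6 (log2 intensity). Array 6, which was low in the membrane protein genes, had the highest level of Wt1. The means were 7.84 ± 0.10 and 7.97 ± 0.04 (SD, n = 3 each), a log2 difference of -0.12 ± 0.08 (SE; interval -0.31 to 0.07, limma, adjusted p = 0.457).

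Krt8 and Krt18 encode the type II and type I keratins that pair into the filaments of simple epithelia and mesothelium. Krt8 was at 8.94, 7.80 and 8.21 with Cre and at 8.09, 7.88 and 7.94 without, on the log2 scale. Krt18 was at 8.31, 7.22 and 7.43 with Cre and at 7.32, 6.94 and 7.24 without. In both genes array 1 stood above all others, by 0.73 for Krt8 and 0.87 for Krt18, and on the other 5 arrays the groups overlapped.

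The log2 difference was 0.35 ± 0.28 (SE) for Krt8, with an interval from -0.32 to 1.02 (limma, adjusted p = 0.534). For Krt18 it was 0.49 ± 0.29 (SE), with an interval from -0.20 to 1.18 (limma, adjusted p = 0.429). Both values rest on array 1: without it the log2 difference was 0.04 for Krt8 and 0.16 for Krt18. Without array 2, the array lowest in Krt8, the difference was 0.61 for Krt8 and 0.70 for Krt18.

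Krt19, a type I keratin that can also pair with Krt8, did not follow the other keratins. Its levels were 7.95, 7.64 and 7.79 on arrays 1 to 3 and 8.55, 8.08 and 7.62 on arrays 4 to 6 (log2 intensity). The Hmox1f/f arrays held both the highest (array 4) and the lowest level (array 6), and array 1 was not raised as it was in Krt8 and Krt18. The log2 difference was -0.29 ± 0.23 (SE; interval -0.85 to 0.27, limma, adjusted p = 0.537), and it ranged from -0.06 without array 4 to -0.52 without array 6. Keratin genes have near-identical copies and pseudogenes, and the positions of the probes were not analysed here, so a share of the keratin signal from such copies cannot be separated.

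**Figure D2:**
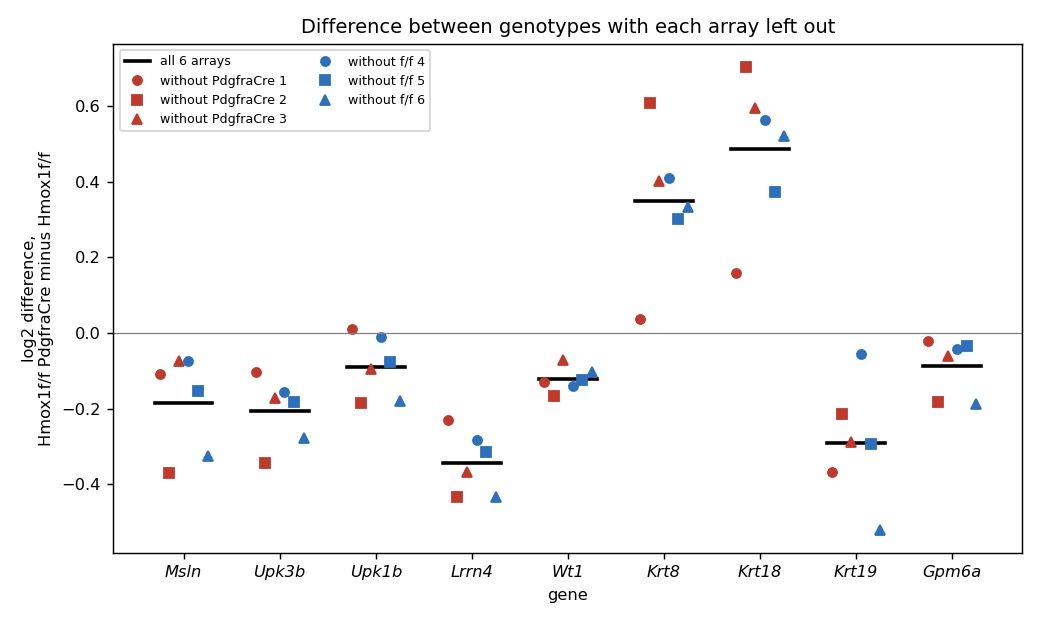
Log2 difference between genotypes (vertical axis, Hmox1f/f PdgfraCre minus Hmox1f/f) of each member (horizontal axis). Black lines use all 6 arrays, and each symbol leaves out 1 array, red for arrays with Cre and blue for arrays without. Lrrn4 stays between -0.43 and -0.23, Krt8 runs from 0.04 to 0.61, and Upk1b reaches 0.011 without array 1.

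The 9 members thus did not vary as 1 block over the arrays. For Msln, Upk3b, Upk1b, Lrrn4 and Gpm6a, all genes of membrane proteins, the 3 lowest arrays were arrays 1 and 3 with Cre and array 6 without. Given as deviations from each gene's mean over the 6 arrays, these 5 genes averaged -0.27, 0.15 and -0.15 on arrays 1 to 3 and 0.23, 0.15 and -0.11 on arrays 4 to 6 on the log2 scale. The split ran across the genotypes, with 2 arrays with Cre and 1 without on the low side. Of all genes tested, 4.55% (502 of 11024) had the same 3 arrays lowest, a pattern that was picked after the values were seen and has no test.

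The keratin pair took another course. Krt8 and Krt18 deviated by a mean of 0.85, -0.27 and 0.05 on arrays 1 to 3 and by -0.07, -0.37 and -0.19 on arrays 4 to 6. An excess of at least 0.5 on array 1 over the next array was seen in 81 of the genes tested (0.735%), Krt8 and Krt18 among them. This pattern, too, was chosen after the values were seen.

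**Figure D3:**
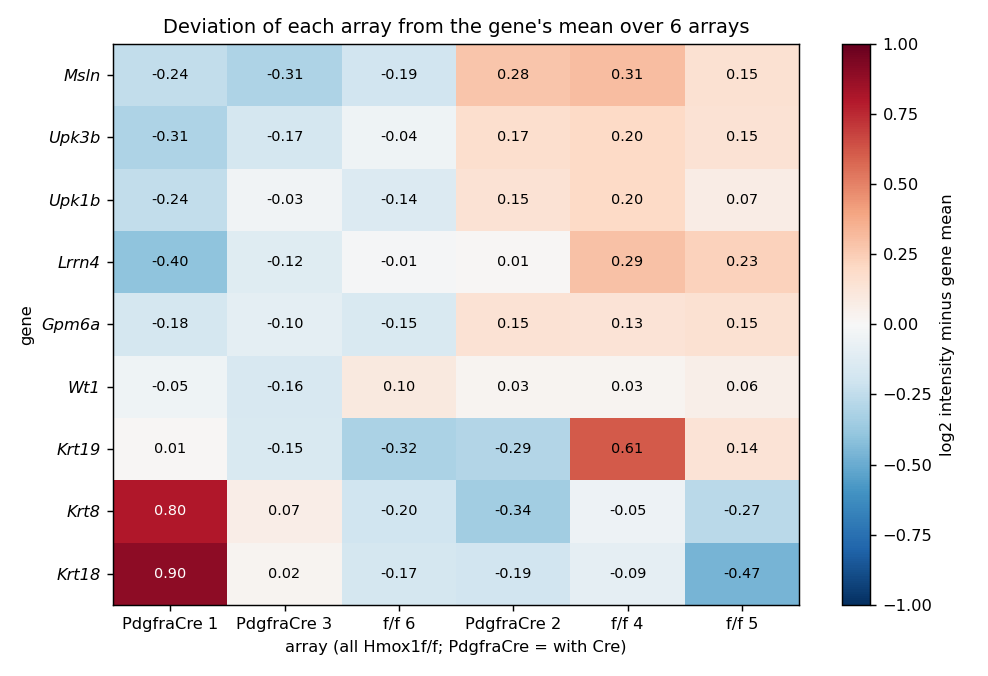
Deviation of each array (columns) from a gene's mean over the 6 arrays on the log2 scale, for the 9 members (rows), with blue for below and red for above the mean. Columns are ordered with the 3 arrays lowest in the membrane protein genes on the left. The 5 upper genes are blue on those 3 arrays, and Krt8 and Krt18 deviate by 0.80 and 0.90 on array 1.

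Correlations over the 6 arrays were computed for all 36 pairs of members. By exact two-sided permutation tests 11 of 36 pairs had an unadjusted p of Pearson's r under 0.05, and 0 of 36 passed after Benjamini-Hochberg adjustment, where the lowest adjusted p was 0.125. For Spearman's rho the lowest adjusted p was 0.15 (exact permutation). The 6 arrays belong to both genotypes, and a pair of genes on the same array shares its RNA pool and its normalization.

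Krt8 and Krt18 had the highest correlation, with r = 0.967 (exact permutation p = 0.0111, adjusted 0.125) and rho = 0.943 (exact permutation p = 0.0167, adjusted 0.15). Without the 2 arrays farthest from the median of Krt8 r was 0.906, within genotypes it was 0.967, and without array 1 it was 0.735. As a description of the 5 membrane protein genes, which were grouped after the values were seen, their 10 pairs had r from 0.763 to 0.935 and rho from 0.60 to 0.943. Within genotypes these 10 pairs had r from 0.796 to 0.984, without array 1 from 0.653 to 0.985, and without the 2 farthest arrays from 0.401 to 0.986. Each of the 5 genes ran against Krt8 and against Krt18, with r from -0.843 to -0.530 in 10 pairs, from -0.765 to -0.422 within genotypes and from -0.589 to -0.121 without array 1. Without the 2 farthest arrays 9 of these 10 pairs stayed below 0. In every pair these were the arrays farthest from the median of 1 gene only, the one named first in the opening list of members. The arrays left out could therefore differ between pairs, and few arrays remained.

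The 250 bases before the transcription start are shown for Upk3b with Lrrn4 and for Krt8 with Krt18, to let their sequence be set side by side. These pairs moved together over the arrays, though neither passed the adjusted p. Gpm6a followed Upk3b as closely (r = 0.916, against 0.914 for Upk3b with Lrrn4) and is described below without its sequence. The sequences come from the RefSeq promoter table of build GRCm38.p6, which held 5 of the 9 members. The windows are chr5:136038246-136038495 (plus strand) for Upk3b, chr2:132880863-132881112 (minus strand) for Lrrn4, chr15:102004343-102004592 (minus strand) for Krt8 and chr15:102027966-102028215 (plus strand) for Krt18. Each is written 5′ to 3′ toward the gene, and capitals mark the letters CATTCC or their reverse complement GGAATG, the M-CAT site of TEAD factors.
Upk3b: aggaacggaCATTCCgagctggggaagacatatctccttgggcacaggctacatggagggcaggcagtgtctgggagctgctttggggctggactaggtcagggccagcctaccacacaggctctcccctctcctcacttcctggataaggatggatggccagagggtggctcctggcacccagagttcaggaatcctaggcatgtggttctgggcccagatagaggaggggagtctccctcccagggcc
Lrrn4: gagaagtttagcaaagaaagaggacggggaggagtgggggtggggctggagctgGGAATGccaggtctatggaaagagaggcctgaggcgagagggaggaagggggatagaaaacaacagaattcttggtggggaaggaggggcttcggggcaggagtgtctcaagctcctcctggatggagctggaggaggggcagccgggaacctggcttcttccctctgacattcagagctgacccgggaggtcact
Krt8: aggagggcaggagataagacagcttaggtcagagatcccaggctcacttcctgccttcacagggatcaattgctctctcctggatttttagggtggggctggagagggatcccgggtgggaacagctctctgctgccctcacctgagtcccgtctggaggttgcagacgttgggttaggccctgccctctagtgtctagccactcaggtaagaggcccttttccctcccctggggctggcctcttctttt
Krt18: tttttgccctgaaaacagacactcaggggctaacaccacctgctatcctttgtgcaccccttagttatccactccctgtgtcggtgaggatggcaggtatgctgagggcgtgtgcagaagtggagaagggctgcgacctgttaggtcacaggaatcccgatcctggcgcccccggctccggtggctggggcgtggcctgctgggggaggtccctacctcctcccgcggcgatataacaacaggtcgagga

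Upk3b held CATTCC 241 to 236 bases before the start, and Lrrn4 held GGAATG 196 to 191 bases before it. Gpm6a, with a pair of starts in the table, held GGAATG 125 to 120 bases before the first of them. Krt8 and Krt18 held neither. On either strand this site occurred in 12.6% of the 32851 windows of the table. The TATA box TATAAA (12.4% of windows), the GC box GGGCGG (32.7%), the AP-1 site TGANTCA (6.75%) and the WT1/EGR core GCGTGGG (4.30%) were also searched on both strands. Of these, only the TATA letters were found, in reverse 211 to 206 bases before the second start of Gpm6a. The motifs were chosen with these sequences seen, and a match is a match of letters only. GC content was 60.8% for Upk3b, 59.2% for Lrrn4, 58.0% for Krt8 and 60.4% for Krt18, where the median of all windows was 52.4%. Gpm6a lay below that median, at 44.4% for its first start and 33.6% for its second. Krt8 and Krt18 are neighbours on chromosome 15, with 0 protein-coding genes between them in the RefSeq table, and their windows lie on opposite strands.

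Other genes of mesothelium were described from a wider list of 33 symbols, of which 32 were found and 26 tested. With Cre 17 were lower and 9 higher, where 57.4% of all genes tested were lower, and the median log2 difference was -0.07, against -0.03 over all genes tested. At an unadjusted p under 0.05, 3 of 26 were lower and 1 higher, near the 12.8% and 3.03% of all genes tested, and 0 passed the adjusted p in limma. The 6 genes below the filter were Bnc1, Calb2, Cybrd1, Itln1, Muc16 and Sema3e, so the list includes well-known markers, such as calretinin (Calb2) and the mucin Muc16, that were dim on all 6 arrays.

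Lrrn4cl, a gene named for its likeness to Lrrn4, had the smallest p in the wider list. It was at a log2 intensity of 9.07, 9.26 and 9.29 with Cre and at 9.58, 9.65 and 9.76 without. Its groups did not overlap, and array 6, low in Lrrn4, was the highest here. The log2 difference was -0.46 ± 0.09 (SE; limma, unadjusted p = 0.00213, adjusted p = 0.266).

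Pdpn, the gene of podoplanin, a mucin-type glycoprotein of mesothelium, lymphatic endothelium and fibroblasts, differed by -0.47 ± 0.16 (SE, log2; limma, adjusted p = 0.268). Aldh1a2, the retinoic acid synthesising enzyme of mesothelium, differed by -0.27 ± 0.10 (SE, log2; limma, adjusted p = 0.282). Igfbp5, an IGF binding protein made by many stromal cells, differed the other way, by 0.36 ± 0.11 (SE, log2; limma, adjusted p = 0.266). In the wider list the low arrays of the membrane protein members recurred in 3 of 26 genes (Nkain4, Ptgis and Cdh11). The excess on array 1 recurred in 2 of 26, the secreted chaperone gene Clu and the metal transporter gene Slc39a8.

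**Figure D4:**
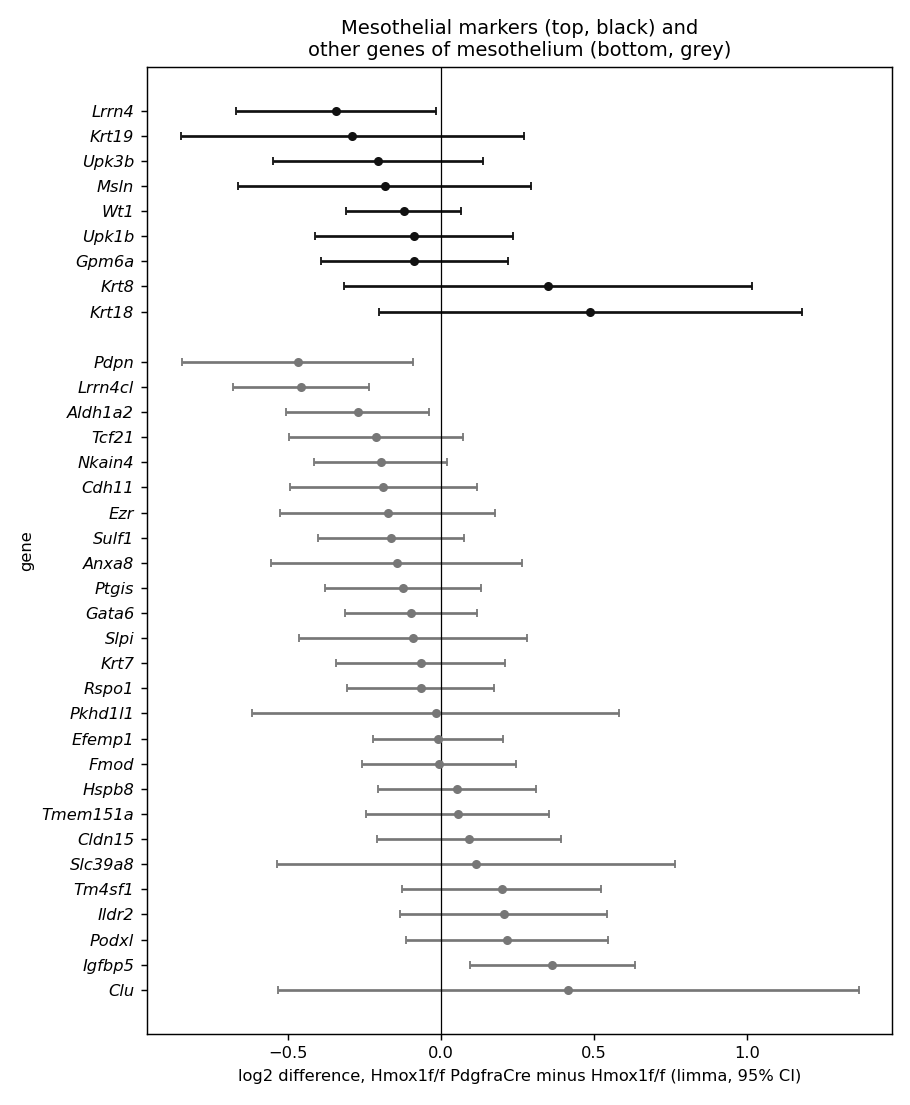
Log2 difference between genotypes (horizontal axis, Hmox1f/f PdgfraCre minus Hmox1f/f) with its 95% confidence interval from limma, for the 9 members (black) and the 26 other tested genes of mesothelium (grey). The intervals of Lrrn4, Pdpn, Lrrn4cl and Aldh1a2 lie below 0 and that of Igfbp5 above it, and 0 of the 9 and 0 of the 26 genes passed the adjusted p.

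Relatives of the members by family were read the same way. Of 44 other keratin genes found only 5 were tested, 3 lower and 2 higher, and 0 had an unadjusted p under 0.05. Krt7, a type II keratin of mesothelium and simple epithelia, differed by -0.07 ± 0.11 (SE, log2; limma, adjusted p = 0.776). Of the other uroplakins, Upk1a was at 8.26, 7.25 and 7.20 with Cre and at 7.28, 7.08 and 7.13 without, on the log2 scale. Array 1 stood apart in Upk1a as it did in Krt8 and Krt18, whereas it was the lowest array in Upk1b and Upk3b. The rest of the uroplakins found did not share the excess: Upk2 was highest on array 2, Upk3a on array 4 and Upk3bl on array 6. Upk3bl, a close relative of Upk3b, was below the filter, and a share of Upk3b signal from it cannot be separated here. The intermediate filament genes Vim and Des differed by -0.13 ± 0.07 and -0.36 ± 0.13 (SE, log2; limma, adjusted p = 0.373 and 0.282).

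Genes of epithelial junctions were read beside the keratin pair. Of the 9 tested, 6 were highest on array 1, the array highest in Krt8 and Krt18, and 3 were not: the plakophilin gene Pkp2 and the tight junction gene Tjp1 were highest on array 3 and Cgn on array 2. Cdh1 and Epcam were picked after their values were seen. Cdh1, the gene of the adherens junction protein E-cadherin, which normal mesothelium makes little of, was at 8.57, 6.54 and 7.47 with Cre and at 7.18, 7.14 and 7.01 without (log2 intensity). Epcam, a gene of epithelial adhesion that was below the filter and not tested, was at 8.39, 6.07 and 7.13 with Cre and at 6.98, 6.78 and 6.86 without. In both genes, as in Krt8, array 1 was the highest and array 2 the lowest. Of the 9 tested genes, 8 were higher and 1 lower with Cre, with 1 at an unadjusted p under 0.05 (Tjp1, a tight junction scaffold that endothelium also makes, 0.46 ± 0.14, SE, log2; limma, adjusted p = 0.266). The mean of the 21 genes found lay between 6.89 and 7.59 with Cre and between 6.87 and 7.05 without, highest on array 1.

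Perigonadal fat of males lies against the epididymis, whose epithelium also makes Krt8, Krt18 and Krt19. Markers of that epithelium averaged 7.72, 5.50 and 6.17 on arrays 1 to 3 and 5.71, 5.71 and 6.29 on arrays 4 to 6 (log2 intensity, 33 genes found). The 6 tested were all higher with Cre, with a median log2 difference of 1.91, and 0 had an unadjusted p under 0.05. Over the 33 found the median was 0.15. The filter asks for a high level on 3 or more arrays, so it leaves out genes high on array 1 alone or on array 6 alone. Lcn5, for instance, was at 12.21 on array 1 and at 5.39 to 5.86 on the others, and was not tested. The direction of the 6 tested therefore does not stand for the whole list. All 6 were highest on array 1, as were 19 of the 33 found. Adam7, an epididymal gene, was at 11.68, 5.43 and 8.93 with Cre and at 5.49, 5.52 and 7.85 without. Spink8, a protease inhibitor gene of the epididymis, was at 12.17, 5.73 and 9.99 with Cre and at 9.33, 8.23 and 5.32 without. Array 6 was thus raised over arrays 4 and 5 in Adam7 and was the lowest of all arrays in Spink8. Other epididymal genes, below the filter and not tested, were highest on array 6. Gpx5 was at 7.55, 5.17 and 5.25 with Cre and at 5.25, 6.87 and 10.33 without. Spag11b was at 5.17, 5.25 and 5.04 with Cre and at 4.75, 6.43 and 9.04 without. Lcn9 and Lcn8 were highest on array 6 too. In the epididymal mean the 3 highest arrays were 1, 6 and 3, the 3 lowest in the membrane protein members, but only 3 of the 33 genes had these as their 3 highest arrays, and in 16 of 33 array 6 exceeded arrays 4 and 5. The part of the epididymal signal in the levels of Krt8 and Krt18, and in the low arrays of the membrane protein genes, was not tested. With arrays 1 and 6 both left out, a setting added after the values were seen, the log2 difference was 0.02 for Krt8, 0.19 for Krt18 and -0.32 for Lrrn4. That of Krt19 moved from -0.29 to -0.60 (limma, unadjusted p = 0.0352).

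**Figure D5:**
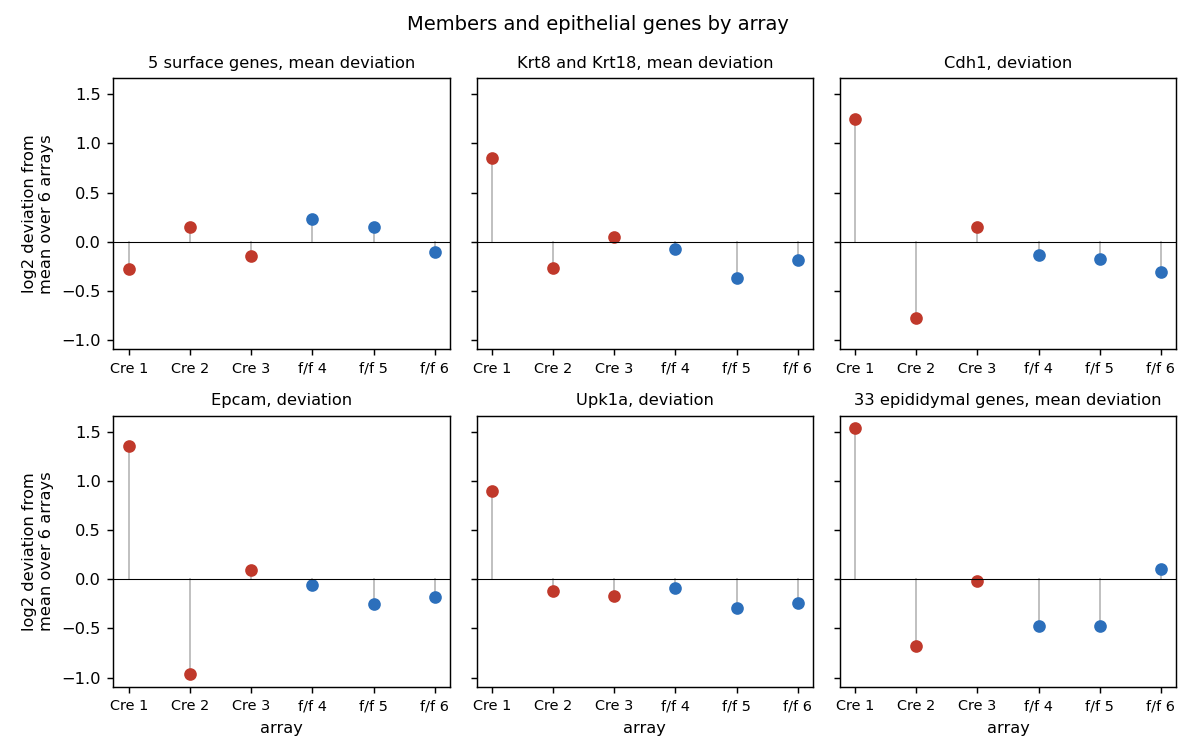
Log2 deviation from the mean over the 6 arrays (vertical axis) on each array (horizontal axis; Cre, Hmox1f/f PdgfraCre, red; f/f, Hmox1f/f, blue). Panels show the mean of Msln, Upk3b, Upk1b, Lrrn4 and Gpm6a (5 surface genes), the mean of Krt8 and Krt18, then Cdh1, Epcam, Upk1a and the mean of 33 epididymal genes. Array 1 is the lowest in the first panel, at -0.27, and the highest in all others, at 0.85 for the keratins and 1.54 for the epididymal genes.

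Markers of other cells of the pad are given beside the members, and the shares of all genes tested at an unadjusted p under 0.05 were 12.8% lower and 3.03% higher. Of 21 tested macrophage genes all 21 were lower with Cre, 14 at an unadjusted p under 0.05. The macrophage mean was 10.33, 10.63 and 10.10 with Cre and 10.87, 10.82 and 10.87 without on the log2 scale. Array 2, the array with Cre highest in Msln, Upk3b, Upk1b, Lrrn4 and Gpm6a, was also the highest with Cre here. Array 6, in contrast, was low in those genes and among the highest here. All 13 tested endothelial genes were higher with Cre, 8 of them at an unadjusted p under 0.05, with means of 9.63 to 9.83 with Cre and 9.17 to 9.57 without. Of 14 AP genes 8 were lower and 6 higher, 2 at an unadjusted p under 0.05, with means of 10.37 to 10.46 and 10.46 to 10.52. Mature adipocyte genes were higher in 13 of 13 tested, 5 at an unadjusted p under 0.05. Mural cell genes were higher in 7 of 9 and lymphocyte genes in 1 of 3, with 2 mural genes higher and 1 lymphocyte gene lower at an unadjusted p under 0.05. In each of these lists 0 genes passed the adjusted p in limma, and their part in the differences of the mesothelial members was not tested.

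Hmox1 was at 11.25, 11.36 and 10.74 with Cre and at 11.90, 11.63 and 12.32 without (log2 intensity). Its groups did not overlap, and the log2 difference was -0.83 ± 0.23 (SE; limma, adjusted p = 0.266). Array 6, the highest in Hmox1, was the array without Cre lowest in the 5 membrane protein members. Array 3, the lowest in Hmox1, was low in these members too. Median intensities of the arrays were 106 to 115, between 10849 and 11108 of 19938 genes exceeded a log2 intensity of 7, and arrays correlated at 0.960 to 0.996 across genes. The precision of every difference is limited by 3 arrays a group, and the p-values measure only the spread between these pools.

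Last, genes were ranked by how closely their log2 levels followed the mean of the 9 members, each taken as its deviation from its own mean. That mean deviated by 0.03, -0.01 and -0.11 with Cre and by 0.18, 0.02 and -0.12 without, a narrow course that is set in part by the opposed keratins. The 8 tested genes most like it were Csrp1 (Pearson's r = 0.991), Cmah (0.983), Kctd12 (0.982), Ctsf (0.978), Afg1l (0.973), Kmt5c (0.970), Gle1 (0.968) and Ccdc180 (0.966), over 6 arrays. Csrp1 encodes a LIM domain protein and Ctsf the protease cathepsin F, and none of the 8 is in the wider list of mesothelial genes. Some genes of the wider mesothelial list, not all 32 found, were looked up by name against the mean of the 5 membrane protein genes alone. That group was formed after the values were seen, and the wider-list genes not looked up may differ. Nkain4 had r = 0.863, Bnc1, which was below the filter, 0.860, and Aldh1a2 0.765. Anxa8 had 0.681, Pkhd1l1 0.670, Pdpn 0.547, Lrrn4cl 0.468 and Clu -0.730. The genes highest in that ranking were Adar, an RNA editing enzyme (0.992), Dolk (0.985) and Ms4a7, a macrophage gene (0.984). Against the mean of Krt8 and Krt18 the highest were Ldhd (r = 0.993), Hoxb7 (0.989), Grhpr (0.987) and Cbx7 (0.985). Of the genes looked up there by name, Upk1a had 0.960, Lcn5, a lipocalin gene of the epididymis below the filter, 0.956, and Cdh1 0.936. Clu, of the wider mesothelial list, had 0.930 and Epcam 0.924, and all of these were highest on array 1. The other genes looked up by name, all from the wider mesothelial list, had r below 0. These were Aldh1a2 (-0.852), Anxa8 (-0.773), Lrrn4cl (-0.711), Pkhd1l1 (-0.514), Nkain4 (-0.512), Pdpn (-0.456) and Bnc1 (-0.444). Most genes of the wider list were not looked up, among them Slc39a8 with its excess on array 1. The r values of the genes looked up therefore do not stand for that list. These values describe 6 arrays that share their normalization, and they carry no p.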

How the data were processed

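Total RNA was measured on 6 Affymetrix arrays. The authors deposited linear intensity values, as whole numbers between 8 and 20701. For their making, the submitters' processing notes name RMA, which corrects background, quantile-normalizes and summarises probes, and Affymetrix Expression Console 1.1. With RMA, differences of dim probesets are compressed and a shift common to most genes is hidden. Log2 of the deposited intensities was taken here.

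Of 35556 probesets, 21789 carried 1 gene symbol. For 999 genes with several, the probeset with the highest mean was kept. The filter kept 11024 of 19938 genes, those exceeding 7 (log2) on 3 or more arrays. Differences were fitted on all genes with limma 3.58.1 in R 4.3.3 (lmFit, eBayes, two-sided, genotype only), with Benjamini-Hochberg adjustment over the filtered genes. The code was tested on simulated data. Correlations used exact permutation (scipy 1.17.1), and figures matplotlib 3.10.9 in Python 3.11.15.

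Groups came from the labels, which give no batch. The mesothelial members, the gene lists and the tests were chosen with earlier results of these data known. The text names all members, up to 4 tested genes with the smallest p of each other list described, up to 4 marker genes with the highest level, Hmox1, Pdgfra, and the 8 genes most like the members. The genes below the filter, the genes of either array pattern, Upk3bl, Cdh1, Epcam, Cgn, Nkain4, Bnc1, Anxa8, Pkhd1l1, Lcn5, Gpx5, Spag11b, Lcn9, Lcn8 and the genes most like the 5 membrane protein genes or the keratin pair were named after their values were seen. Alternatives were other filters, a further quantile normalization, centring on medians, trended and robust moderation, arrayWeights, the mean of probesets and leaving out each array. After the data were seen, leaving out arrays 1 and 6 together and moderation over the tested genes alone were added.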

Additional observations from a re-analysis of the deposited data

How the results depend on the processing

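No paired analysis was possible because the groups share no replicate numbers, 1 to 3 with Cre and 4 to 6 without. In limma 0 genes passed the adjusted p under any of the settings run. At an unadjusted p under 0.05, 1740 genes were called, against 2415 with arrayWeights, 1598 after a further quantile normalization, 1519 after centring on medians, 1117 of 3351 tested with the full filter of the methods, 961 to 2106 on leaving out 1 array (1038 without array 1 and 961 without array 6), and 448 without arrays 1 and 6 together, a setting added after the data were seen. The filter of the methods tests fewer genes, and leaving out arrays uses fewer arrays.

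Among the members 1 was called at this threshold, against 0 after a further quantile normalization or centring on medians and 2 with arrayWeights (Lrrn4 and Krt18), the setting with the most calls over all genes. Leaving out 1 array gave 0 to 3 calls: 0 without array 1, 3, 4 or 5, 3 without array 2 (Upk3b, Lrrn4 and Krt8) and 2 without array 6 (Lrrn4 and Krt19). Without arrays 1 and 6 together 2 were called (Lrrn4 and Krt19). The cause of these changes was not tested. Of 124 planned values of the members' log2 differences 123 kept their direction, and that of Upk1b reversed without array 1, its range being -0.18 to 0.011. The median over the members stayed between -0.19 and -0.06 on leaving out 1 array and between -0.19 and -0.08 in the other planned settings. The full filter of the methods left out Upk1b and Wt1, so it gives no value for them.

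On leaving out 1 array the log2 difference ranged from -0.37 to -0.07 for Msln, -0.34 to -0.10 for Upk3b, -0.17 to -0.07 for Wt1, 0.16 to 0.70 for Krt18 and -0.19 to -0.02 for Gpm6a.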
